A study of Mus musculus with 8 samples.

Results

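Solute carrier transporters are described here as they are expressed in marginal zone B cells (MZBs), a B cell population of the spleen that responds early to antigens in blood. The genes were chosen by their measured counts. They are the symbols that begin with Slc, a family number, the letter a and a member number, and whose higher column reached 100 fragments; Slc40a1, Slc11a2, Slc7a5 and Slc3a2 were left out by name. This gave 138 of 345 matching symbols, among 9582 genes of any kind at that minimum and 23997 in the table. Since the counts chose the genes, their levels are a description and no test was made. Of the 203 symbols below the minimum, 62 were listed at 0 in both columns, 113 lay above 0 and under 20 fragments, and 28 had 20 to under 100. Just inside the minimum stood Slc36a4, with 89.2 fragments in q2 and 110 in q1, and just outside it Slc39a4, with 83.4 fragments in q2 and 99.8 in q1. Of the 138 genes, 129 reached 100 fragments in both columns. The other 9 reached it in 1 column alone, and genes kept in that way tend to differ between the columns.

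The RNA came from MZBs of C57BL/6 mice. The labels list 4 libraries with the genotype ACKR3- and 4 with ACKR3+, one mouse each by the series' design, with GFP named in the titles. ACKR3 is an atypical chemokine receptor that takes up CXCL12. The age of the mice and the allele that carries GFP were not stated. Each gene has 1 estimated fragment count for each of 2 conditions, q2 and q1, pooled over their libraries, and no header or label ties a column to a genotype. The spread between mice is therefore not seen, no p-value is given, and directions are stated for the columns alone. The log2 ratio is that of q2 over q1 with 1 fragment added to each count, so a positive value means higher in q2. The value after ± is the SD of the ratio that the deposited variances imply.

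Solute carriers move small molecules and ions across the plasma membrane and the membranes of mitochondria, lysosomes, the Golgi apparatus and the endoplasmic reticulum. Most act as uniporters, symporters or exchangers that do not split ATP themselves. Lymphocytes rely on them for amino acids, sugars, nucleosides and metal ions, and raise the uptake of several of these when they grow and divide.

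The table summed to 16653774 fragments in q2 and 16877559 in q1. All 6 pan-B cell markers and all 10 MZB markers examined reached 100 fragments, led by Cr2 (CD21) with 70851 fragments in q2 and 81167 in q1. All 10 MZB markers were higher in q1, as was Ackr3, with 149 fragments in q2 and 1030 in q1. Genes of other B cell states went the other way. Germinal center markers summed to 1999 fragments in q2 and 186 in q1, with 8 of 8 higher in q2, plasma cell markers to 62938 fragments in q2 and 25589 in q1, with 10 of 11, and cell cycle genes to 10193 fragments in q2 and 2658 in q1, with 11 of 11. Follicular B cell genes summed to 17379 fragments in q2 and 14346 in q1, with 4 of 6 higher in q2. Markers of other cell types were scarce. Macrophage and monocyte markers summed to 949 fragments in q2 and 1294 in q1, with 12 of 14 higher in q1, T cell markers to 1137 fragments in q2 and 963 in q1, dendritic cell markers to 372 fragments in q2 and 203 in q1, erythroid markers to 104 fragments in q2 and 110 in q1 and neutrophil markers to 25.6 fragments in q2 and 17.8 in q1. None of these markers was at 0 in both columns. In bulk RNA, fewer cells of a type and less RNA per cell cannot be told apart. The part of these other cells and states in the ratios below was not tested.

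As a group the solute carriers differed little between the columns. Their fragments summed to 151672 in q2, or 0.911% of that column, and to 156801 in q1, or 0.929%. Their median log2 ratio was -0.065, with quartiles at -0.17 and 0.079, and that of all genes at the minimum was 0.00053, with quartiles at -0.10 and 0.10. Of the 138 genes, 57 were higher in q2, against 50.2% of all genes, and 81, or 58.7%, were higher in q1, against 49.8% of all genes. With the columns scaled to equal totals, 56.5% of the carriers and 44.7% of all genes were higher in q1. Most differences were small, as they were for genes at large. Within 0.2 log2 units of equal lay 100 of the 138 genes (72.5%), against 75.9% of all genes.

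No solute carrier was at least 2-fold higher in q2, where 1.84% of all genes were. Slc12a5 alone was at least 2-fold higher in q1, where 0.438% of all genes were; together 2.28% of all genes were 2-fold apart. At 1.5-fold, 3 carriers were higher in q2 (3.39% of all genes) and 3 in q1 (1.58%). After adjustment of the ratios for GC content, length and expression level, 1 was 1.5-fold higher in q2 and 3 in q1. The 6 genes make up 4.35% of the carriers, near the 4.97% of all genes that were 1.5-fold apart. Of these 6, 3 had reached the minimum in 1 column alone. Among the 129 carriers with 100 fragments in both columns, 3 were 1.5-fold apart, against 3.07% of all genes. Further, 6 carriers, or 4.35%, lay more than 2 deposited SD from equal, against 6.26% of all genes. After the same adjustment 3 carriers did. No share of all genes is given for the adjusted counts. Over both columns together and without adjustment, these shares are close to, or below, those of all genes. By direction they departed both ways at 2-fold, on very few genes. Toward q1 the 1 carrier makes up 0.725%, against 0.438% of all genes, and toward q2 there was none, against 1.84%.

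**Figure D1:**
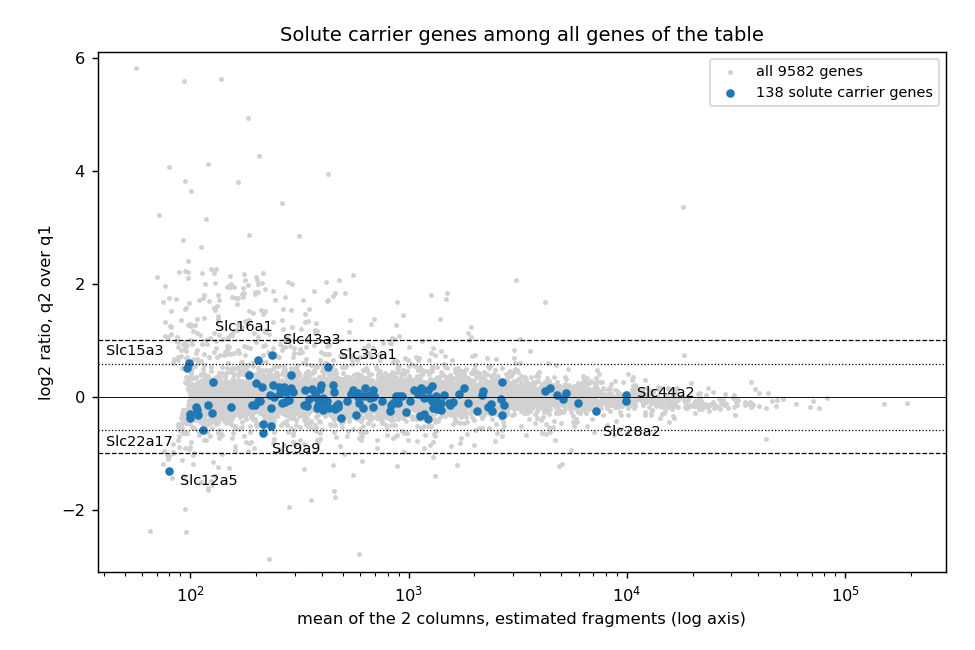
Log2 ratio of q2 over q1 against the mean of both columns in estimated fragments (log axis), for the 138 solute carrier genes (blue) and all 9582 genes at the same minimum (grey). Slc12a5, at -1.31, is the gene of the 138 that lies farthest from 0, and most carriers lie among the bulk of genes around 0.

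Promoter sequence is shown for 4 of the carriers that stood far apart, to set beside their values. The sequences are from RefSeq (GRCm38.p6), which listed a promoter for 105 of the 138 genes. The E-box CACGTG, a palindrome bound by basic helix-loop-helix factors such as USF and MYC, is in capitals. Each line runs 5′ to 3′ from 250 to 31 bases before a listed start.
Slc16a1: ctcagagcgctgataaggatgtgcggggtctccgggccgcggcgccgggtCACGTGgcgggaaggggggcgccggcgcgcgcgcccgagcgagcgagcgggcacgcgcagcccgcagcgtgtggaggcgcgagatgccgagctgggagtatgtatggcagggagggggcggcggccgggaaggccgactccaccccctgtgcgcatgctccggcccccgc
Slc33a1: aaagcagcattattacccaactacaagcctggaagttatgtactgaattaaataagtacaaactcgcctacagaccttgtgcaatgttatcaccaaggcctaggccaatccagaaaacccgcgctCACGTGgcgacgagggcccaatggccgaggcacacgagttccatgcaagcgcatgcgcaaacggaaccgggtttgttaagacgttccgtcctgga
Slc12a5: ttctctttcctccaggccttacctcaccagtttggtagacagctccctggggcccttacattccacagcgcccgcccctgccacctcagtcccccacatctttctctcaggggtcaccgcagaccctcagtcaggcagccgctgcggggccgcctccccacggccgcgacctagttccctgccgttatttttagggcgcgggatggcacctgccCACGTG
Slc9a9: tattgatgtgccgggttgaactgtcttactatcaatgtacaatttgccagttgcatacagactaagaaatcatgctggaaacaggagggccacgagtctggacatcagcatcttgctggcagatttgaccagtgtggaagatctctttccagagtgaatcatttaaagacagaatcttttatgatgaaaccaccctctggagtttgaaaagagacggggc
The Slc16a1 window is chr3:104638414-104638633 on the plus strand, with the E-box beginning 200 bases before the start. The Slc33a1 window is chr3:63964764-63964983 on the minus strand, with the E-box at 125 bases. For Slc12a5 it is chr2:164967738-164967957 on the plus strand, with the E-box at 36 bases; of its 2 listed starts the one with an E-box is shown. The Slc9a9 window is chr9:94669642-94669861 on the plus strand and has no CACGTG. The E-box occurred within 250 bases before a start in 19 of 105 carriers (18.1%), against 10.5% of genes at the fragment minimum and 6.86% of all genes with a promoter. Of these 19 carriers, 8 were higher in q2 and 11 in q1, so carriers with the motif stood on both sides. The GC box GGGCGG was found, on either strand, in 73.3% of the carriers and 65.3% of genes at the minimum, and CCAAT in 41.9% and 40.9%. The cAMP response element TGACGTCA was found in 2.86% of the carriers and 3.29% of genes at the minimum. The amino acid response element TGATGCAAT was found in 0 of 105 carriers and 0.068% of genes at the minimum. It is too rare for its absence among the carriers to be read. A match is only a run of letters, and the genes shown were picked after their values were seen. They over-represent the motif. Slc43a3, Slc15a3 and Slc22a17 were at least 1.5-fold apart but are not shown and are not among the 19 carriers with the E-box. Whether these genes are among the 105 with a listed promoter is not given here, so the motif may not have been looked for in them. Slc33a1, which is shown, was under 1.5-fold. No link between the E-box and the ratios can be read from the genes shown.

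Abundant carriers included those of mitochondria, choline, glutamine and purine nucleosides. Levels of different genes are compared as fragments per kilobase of the longest coding transcript per 1000000 fragments of the column (FPKM). Slc25a5, an ADP/ATP carrier that exports ATP from mitochondria, came first with 234 FPKM in q2 and 227 in q1. Since 46.6% of the 50-base stretches of its transcripts also occur in other annotated genes, its count is uncertain. Slc25a3, the mitochondrial phosphate carrier, had 186 FPKM in q2 and 189 in q1, and Slc44a2, a choline transporter-like protein, 167 FPKM in q2 and 173 in q1. These last 2 did not differ from each other by more than the SD of their difference in either column. Slc1a5 (ASCT2), the glutamine exchanger of the plasma membrane, had 117 FPKM in q2 and 110 in q1, and Slc28a2, the sodium-coupled purine nucleoside transporter, 101 FPKM in q2 and 118 in q1. The order of Slc1a5 and Slc28a2 was not the same in both columns. Lower levels were those of Slc25a37 (mitoferrin 1), with 82.5 FPKM in q2 and 87.7 in q1 and of Slc50a1, a SWEET family sugar transporter, with 77.2 FPKM in q2 and 80.2 in q1. At the low end stood Slc16a7, with 0.756 FPKM in q2 and 0.624 in q1, and Slc12a5, with 0.453 FPKM in q2 and 1.12 in q1.

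**Figure D2:**
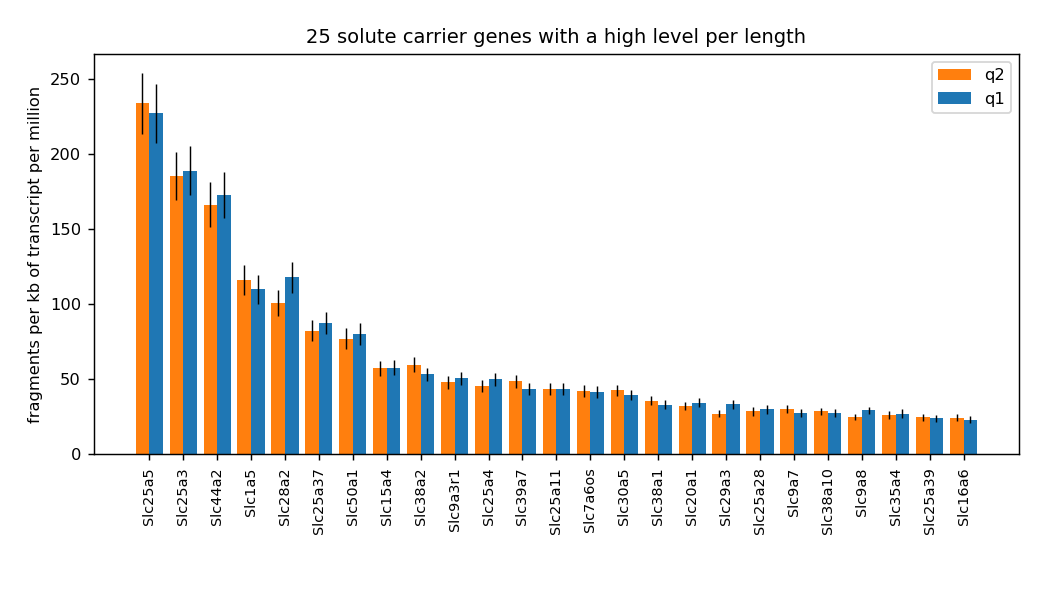
Level per length of 25 solute carrier genes with high levels, in fragments per kilobase of transcript per 1000000 fragments, with q2 bars left of q1 bars and error bars of 1 SD from the deposited variances. Paired bars are close in height, as for Slc25a5 (234 FPKM in q2 and 227 in q1) and Slc29a3 (27.2 FPKM in q2 and 33.5 in q1).

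The share of genes that reached 100 fragments is given by class as a description, with no test. For comparison, 138 of all 345 matching symbols are members, and 9582 of 23997 genes of any kind reached the minimum. The 4 genes left out by name are not counted in the classes, among them the amino acid carrier genes Slc7a5 and Slc3a2. All 5 nucleotide sugar carriers of the Slc35a family did, as did 6 of 8 carriers of nucleosides and nucleobases, 31 of 47 mitochondrial carriers and 19 of 30 metal carriers. Vitamin, choline and cofactor carriers reached it in 10 of 20 cases, carriers of sodium, protons, calcium, potassium, chloride and bicarbonate in 15 of 36, and sugar carriers in 11 of 29. The lowest shares were 19 of 65 for amino acid carriers, 6 of 25 for phosphate, sulfate and other anions, 5 of 22 for monocarboxylates and 7 of 45 for lipids, bile acids, amines, urea and organic ions. Each gene was put in 1 class, mostly by its family number. The Slc5 genes were divided among classes, and Slc43a3 was placed with the nucleobase carriers, apart from its family. A class can hold members with another substrate, such as the monoamine transporters of the Slc6a family among the amino acid carriers, and antisense genes.

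**Figure D3:**
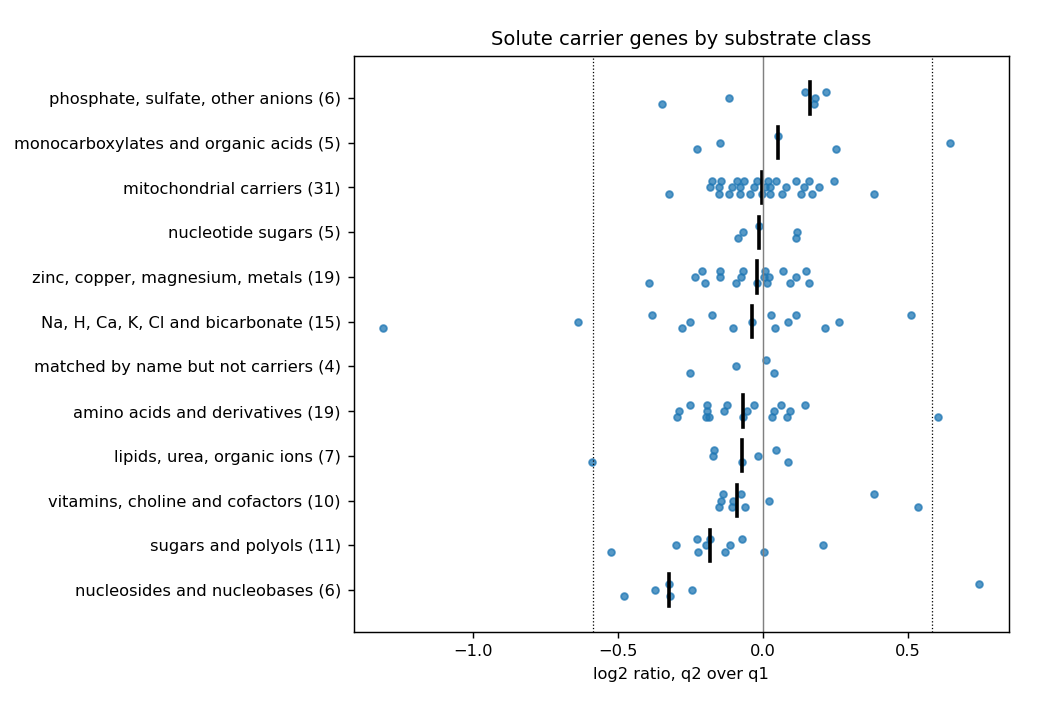
Log2 ratio of q2 over q1 of each of the 138 genes (points) by substrate class, with the number of genes in brackets and the median as a black bar for classes of at least 5 genes. Medians run from -0.32 for nucleosides and nucleobases to 0.16 for phosphate, sulfate and other anions.

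Carriers of nucleosides and nucleobases had the lowest class median, -0.32 over 6 genes. Of the 6, 5 were higher in q1, against 58.7% of the 138 and 49.8% of all genes. Together the 6 had 10011 fragments in q2 and 11922 in q1. Slc28a2 had 6572 fragments in q2 and 7789 in q1, a log2 ratio of -0.25 ± 0.18. Its near copy Gm14085 shares sequence with it (39.8% of its 50-base stretches) and had 18 fragments in q2 and 16.8 in q1. Slc29a3, an equilibrative nucleoside transporter of lysosomes and mitochondria, had 2370 fragments in q2 and 2958 in q1, at -0.32 ± 0.18. The plasma membrane transporter Slc29a1 (ENT1) had 508 fragments in q2 and 636 in q1, at -0.32 ± 0.22. Each was within 2 deposited SD of equal, and so were Slc29a2 (ENT2), at -0.37 ± 0.37, and Slc29a4, which also carries monoamines, at -0.48 ± 0.29. The exception in direction was Slc43a3, a purine nucleobase transporter (chromosome 2, 84936579 to 84958509, GRCm38). Slc43a3 had 295 fragments in q2 and 176 in q1. Its log2 ratio of 0.75 ± 0.28, the highest of the 138, was 2.64 deposited SD from equal and 0.70 after adjustment for GC content, length and expression.

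Sugar carriers were higher in q1 in 9 of 11 genes, with a median of -0.18. The glucose transporter Slc2a1 (GLUT1) had 1048 fragments in q2 and 1289 in q1, a log2 ratio of -0.30 ± 0.19. Its relative Slc2a3 (GLUT3) had 1241 fragments in q2 and 1450 in q1, at -0.22 ± 0.19. The urate transporter Slc2a9 had 191 fragments in q2 and 275 in q1, at -0.52 ± 0.28, the largest ratio of the class. No sugar carrier reached 2 deposited SD. Slc37a2, a sugar phosphate carrier of the endoplasmic reticulum, stood at -0.23 ± 0.19 and Slc37a4, the glucose-6-phosphate transporter, at -0.19 ± 0.23. Slc50a1 was near equal at -0.073 ± 0.19. The myo-inositol transporter Slc5a3 had the ratio of the class farthest toward q2, 0.21 ± 0.30, with 257 fragments in q2 and 222 in q1.

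Among monocarboxylate carriers, Slc16a1 (MCT1), the proton-linked transporter of lactate and pyruvate, stood out toward q2. Slc16a1 (chromosome 3, 104638668 to 104658462) had 249 fragments in q2 and 159 in q1, a log2 ratio of 0.65 ± 0.29. After adjustment it was 0.51, no longer 1.5-fold and within 2 deposited SD. The class median was 0.054 over 5 genes. Slc16a6 was the most abundant with 1723 fragments in q2 and 1659 in q1, but 24.2% of its 50-base stretches also occur in Amz2. Slc16a7 (MCT2) stood at 0.25 ± 0.34, Slc16a10, which carries aromatic amino acids and thyroid hormone, at -0.15 ± 0.29, and Slc16a13 at -0.23 ± 0.36. Monocarboxylate transporters reach the surface with a chaperone, Bsg (basigin) or Emb (embigin). Bsg had 1740 fragments in q2 and 1784 in q1, with an SD of 1.82 on its log2 ratio, too wide to read. Emb had 239 fragments in q2 and 425 in q1, at -0.83 ± 0.26, which is opposite in sign to Slc16a1. The cell cycle, germinal center and plasma cell lists stood higher in q2, as did Slc16a1 and Slc43a3, and their part in these 2 ratios was not tested.

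Amino acid carriers were near equal, with a median of -0.068 over 19 genes, 7 higher in q2 and 12 in q1. Neutral amino acid transporters had the most fragments. Slc1a5 had 5365 fragments in q2 and 5133 in q1, at 0.064 ± 0.18. Slc38a2 (SNAT2) had 4649 fragments in q2 and 4197 in q1, at 0.15 ± 0.18, and Slc38a1 (SNAT1) 4353 fragments in q2 and 4073 in q1, at 0.096 ± 0.18. The cationic amino acid transporter Slc7a1 (CAT1) was at -0.18 ± 0.18, the taurine transporter Slc6a6 at -0.12 ± 0.18, and Slc38a9, the lysosomal arginine sensor of the mTORC1 pathway, at -0.25 ± 0.18. All 6 lay within 2 deposited SD of equal. Slc15a4, a lysosomal carrier of histidine and peptides needed for endosomal Toll-like receptor signalling, had 2611 fragments in q2 and 2668 in q1. Its relative Slc15a3 had 119 fragments in q2 and 77.7 in q1, at 0.61 ± 0.39, which is 1.5-fold but under 2 deposited SD, and it passed the minimum through q2 alone. It was under 1.5-fold after adjustment, at 0.55, and with a pseudocount of 10, at 0.55.

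Mitochondrial carriers, the largest class, had a median of -0.0014 over 31 genes, 15 higher in q2 and 16 in q1. Their ratios ran from -0.32 ± 0.36 for Slc25a33, a pyrimidine nucleotide carrier, to 0.38 ± 0.30 for Slc25a10, the dicarboxylate carrier. Both are low genes. Slc25a33 had 95.8 fragments in q2 and 120 in q1, and Slc25a10 209 fragments in q2 and 160 in q1. Mitoferrin 1 (Slc25a37), which brings iron into mitochondria for heme and iron-sulfur clusters, had 5732 fragments in q2 and 6175 in q1, at -0.11 ± 0.18. Its relative Slc25a28 (mitoferrin 2) was at -0.077 ± 0.21. The ADP/ATP carriers Slc25a5 and Slc25a4 stood at 0.024 ± 0.18 and -0.15 ± 0.18, and the phosphate carrier Slc25a3 at -0.045 ± 0.18. Carriers of the malate-aspartate shuttle were as close to equal, with the oxoglutarate carrier Slc25a11 at -0.019 ± 0.19 and the aspartate-glutamate carrier Slc25a12 at -0.089 ± 0.20. The NAD carrier Slc25a51 was at 0.16 ± 0.19.

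Metal carriers had a median of -0.019 over 19 genes, 9 higher in q2 and 10 in q1. Slc39a6 (ZIP6), a zinc importer, was the one metal carrier beyond 2 deposited SD. Slc39a6 had 1060 fragments in q2 and 1392 in q1, at -0.39 ± 0.19. It was within 2 deposited SD at -0.38 after adjustment and at -0.37 with the columns scaled to equal totals. Zinc transporters of the secretory pathway had the most fragments of the class, a count that also rises with transcript length. Slc30a7, which loads zinc into the Golgi apparatus, had 2586 fragments in q2 and 2865 in q1, and Slc30a5, which does so too, 2265 fragments in q2 and 2120 in q1. Slc39a7 (ZIP7), which releases zinc from the endoplasmic reticulum, had 1890 fragments in q2 and 1705 in q1, at 0.15 ± 0.18, but 82.2% of its 50-base stretches also lie in transcripts of another annotated gene, Gm20427. Slc39a10 (ZIP10), a zinc importer with a role in B cell survival, was at 0.16 ± 0.21, and Slc30a1, the zinc exporter of the plasma membrane, at -0.075 ± 0.23. The metallothionein gene Mt1, which zinc induces as it does Slc30a1, was nearly absent, with 10.4 fragments in q2 and 6.49 in q1. The copper importer Slc31a1 was at 0.12 ± 0.21 and the magnesium transporter Slc41a1 at -0.20 ± 0.19.

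Carriers of sodium, protons, calcium, potassium, chloride and bicarbonate held the gene of the 138 that lay farthest from equal. Slc12a5 (chromosome 2, 164960802 to 164999731) encodes KCC2, a potassium-chloride cotransporter best known from neurons. It had 45.5 fragments in q2 and 114 in q1, a 2.48-fold difference and a log2 ratio of -1.31 ± 0.43. A 95% counting interval from the rounded counts, without the added fragment, is -1.87 to -0.83. It treats estimated counts as counted fragments and covers counting error alone. Slc12a5 was picked as the farthest of the 138 and passed the minimum through q1 alone, so the interval is no test. After adjustment its ratio was -1.35. Slc9a9 (NHE9), a sodium-proton exchanger of endosomes (chromosome 9, 94669909 to 95230445), had 167 fragments in q2 and 261 in q1, at -0.64 ± 0.29 and -0.72 after adjustment. Other exchangers of its family stood on both sides, with Slc9a8 of the Golgi apparatus at -0.25 ± 0.18 and Slc9a7 at 0.11 ± 0.19. The sodium-bicarbonate cotransporter Slc4a7 had 2910 fragments in q2 and 2424 in q1, at 0.26 ± 0.18, and the chloride importer Slc12a2 (NKCC1) was at -0.38 ± 0.23. The class median was -0.037 over 15 genes, 0.0035 after adjustment and -0.10 without genes that share sequence. Macrophage markers and MZB markers were higher in q1, as were Slc12a5 and Slc9a9, and their part in these 2 ratios was not tested.

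Vitamin, choline and cofactor carriers were higher in q1 in 7 of 10 genes, with a median of -0.089. The main exception was Slc33a1, which brings acetyl-CoA into the endoplasmic reticulum (chromosome 3, 63933507 to 63964768). Slc33a1 had 506 fragments in q2 and 349 in q1, at 0.53 ± 0.24, which is 2.25 deposited SD from equal but under 1.5-fold. After adjustment Slc33a1 was at 0.46, within 2 deposited SD. Another annotated gene, Gm26850, shares part of its sequence (35.1% of the 50-base stretches). The abundant Slc44a2 had 9646 fragments in q2 and 10154 in q1, at -0.074 ± 0.18, and its paralog Slc44a1 326 fragments in q2 and 250 in q1, at 0.38 ± 0.26. The ascorbate transporter Slc23a2 was at -0.10 ± 0.19, the folate carrier Slc19a1 at -0.14 ± 0.25 and the thiamine carrier Slc19a2 at -0.15 ± 0.34. For the multivitamin transporter Slc5a6 the deposited coefficient of variation was 5.13 times in q2 and 5.84 times in q1 that of genes of like count. Its ratio of -0.11 ± 1.48 is too wide to read.

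Anion carriers had a median of 0.16 over 6 genes, or 0.076 after adjustment, although their sum was lower in q2, with 4082 fragments in q2 and 4347 in q1. The sum follows the phosphate importers. Slc20a1 had 1787 fragments in q2 and 1938 in q1, and Slc20a2 995 fragments in q2 and 1266 in q1, at -0.35 ± 0.21. The other 4 genes were higher in q2, among them Slc17a9, which loads nucleotides into vesicles, at 0.22 ± 0.23, the lysosomal sialic acid exporter Slc17a5 at 0.18 ± 0.29 and the sulfate transporter Slc26a2 at 0.15 ± 0.26. The nucleotide sugar carriers of the Golgi apparatus had a median of -0.013, from -0.087 for Slc35a2, which carries UDP-galactose, to 0.12 for Slc35a5. The CMP-sialic acid carrier Slc35a1 was at -0.013 ± 0.24.

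Carriers of lipids, amines, urea and organic ions had a median of -0.073 over 7 genes. Slc22a17, known as a receptor for lipocalin, had 91 fragments in q2 and 137 in q1, at -0.59 ± 0.36, and passed the minimum through q1 alone. It was under 1.5-fold with a pseudocount of 10, at -0.55, and with equal totals, at -0.57. The carnitine transporter Slc22a5 had 438 fragments in q2 and 493 in q1, the fatty acid transport protein Slc27a4 378 fragments in q2 and 383 in q1, and the urea transporter Slc14a1 282 fragments in q2 and 265 in q1. None of the 7 reached 2 deposited SD. A further 4 symbols match the name pattern but are not carriers: the scaffold gene Slc9a3r1, with 1544 fragments in q2 and 1648 in q1, Slc7a6os at 0.012 ± 0.20, Slc4a1ap at 0.039 ± 0.21 and the pseudogene Slc2a4rg-ps at -0.25 ± 0.20.

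**Figure D4:**
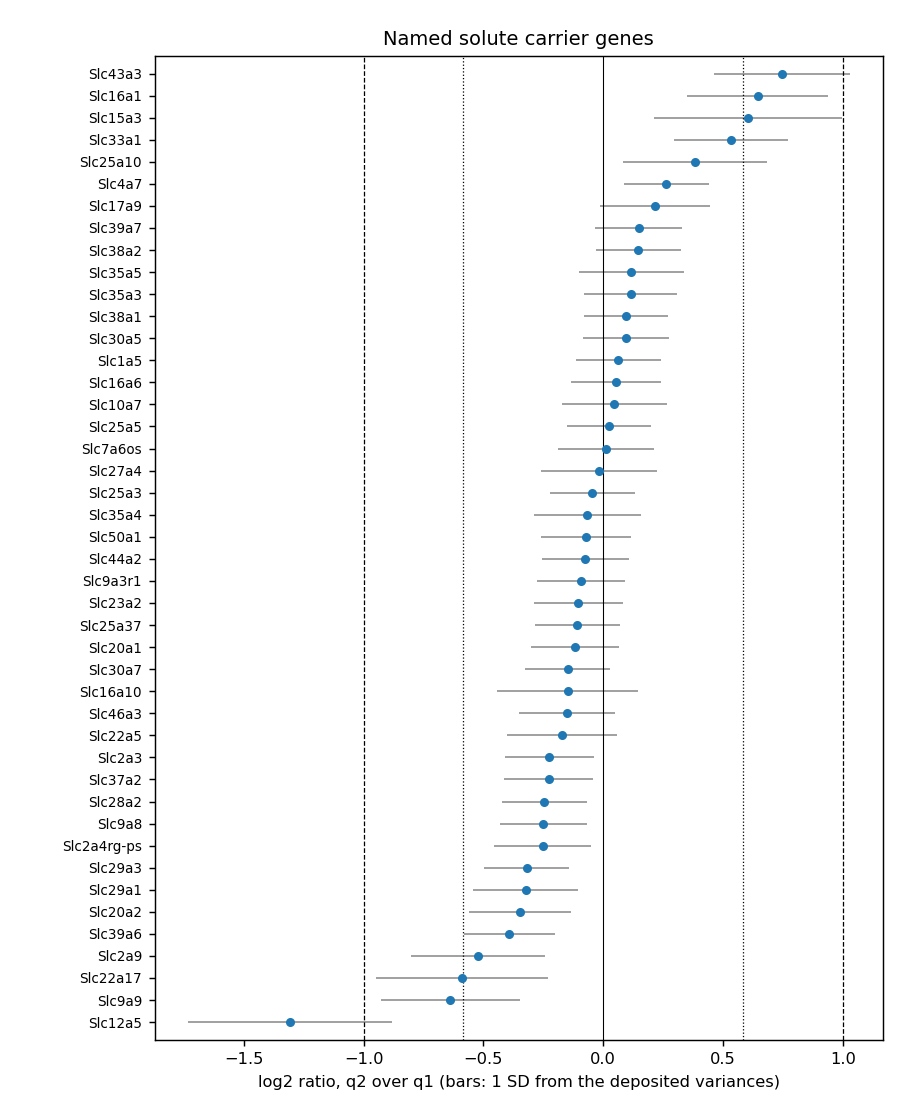
Log2 ratio of q2 over q1 (points) with 1 SD from the deposited variances (bars) for 44 solute carrier genes, drawn from those at least 1.5-fold apart, the 3 with most fragments in each class, the largest ratio of each class and the 3 highest per length. Ratios run from -1.31 for Slc12a5 to 0.75 for Slc43a3.

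Carriers that go by other names gave a similar picture. Of 41 such genes at the minimum, none was 1.5-fold apart, against 4.97% of all genes, and the median was -0.043. Of the 41, 15 stood higher in q2 and 26 in q1, against 50.2% and 49.8% of all genes. Ucp2, a mitochondrial carrier abundant in lymphocytes, had 9729 fragments in q2 and 10335 in q1. Unc93b1, which escorts Toll-like receptors to endosomes, had 15847 fragments in q2 and 17507 in q1. The pyruvate carrier subunits Mpc1 and Mpc2 were at 0.12 ± 0.28 and -0.032 ± 0.27. Slc35b1, which carries ATP into the endoplasmic reticulum, was at 0.42 ± 0.23 and Spns3 at -0.54 ± 0.23. Of the 4 genes left out by name, the large neutral amino acid transporter Slc7a5 was at 0.25 ± 0.22 and its heavy chain Slc3a2 at 0.27 ± 0.18. The iron exporter Slc40a1 had 64.8 fragments in q2 and 184 in q1, at -1.49 ± 0.39, which is farther from equal than any of the 138. The iron importer Slc11a2 had 488 fragments in q2 and 571 in q1, at -0.22 ± 0.22.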

How the data were processed

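Total RNA was extracted with Trizol and made into TruSeq libraries, per the labels' protocols. The submitters' processing notes name TopHat2 2.0.14, cutadapt 1.8.1, Cuffdiff 2.2.1 and mm10; the annotation, strand setting and scaling were not stated. The deposited table, per the file headers, holds the authors' estimated counts of fragments for each condition, pooled over libraries and not whole numbers, with their variances. All 8 libraries enter only through these pooled values, so the quasi-likelihood count test planned for a table of libraries was not run.

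Log2 ratios used a pseudocount of 1, which understates differences of low genes, and SDs are first-order estimates based on those variances; the median coefficient of variation of the carriers was 11.0% in each column. Whether a variance refers to 1 library or to a condition's mean is not stated. Lengths, GC content, positions and shared 50-base stretches came from GENCODE M21 (GRCm38) and covered all 138 genes. Counting intervals (Clopper-Pearson, 95%) were computed on rounded estimated counts without the pseudocount and cover counting error only. Alternatives were other minimums and pseudocounts, 2 rescalings of the columns, an adjustment for GC content, length and expression, and the removal of genes with shared sequence.

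Named genes were those at least 1.5-fold apart, the 3 with most fragments and the largest ratio in each class, and the 3 highest per length; others are examples chosen after their values were seen, and a few genes are not reported here. A part of that rule for protein paralogs was not used here. Members, classes and lists were chosen with earlier results of these data known. The ratio calculation was tested on simulated data, with Python 3.11.15, numpy 2.4.6, pandas 2.3.3 and scipy 1.17.1.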

Additional observations from a re-analysis of the deposited data

How the results depend on the processing

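No paired analysis was possible because each condition has a single pooled column with no replicate numbers; no replicate could be left out, and edgeR and DESeq2 were not run. With a minimum of 20 fragments (166 genes), carriers at least 2-fold higher numbered 2 in q2 and 3 in q1, and at least 1.5-fold 6 in q2 and 8 in q1; of all genes at that minimum, 3.10% were 2-fold higher in q2 and 0.914% in q1, and 5.36% were 1.5-fold higher in q2 and 2.78% in q1. At 500 fragments (76 genes), 0 were 2-fold higher in q1, 0 were 1.5-fold higher in either column, and 2 lay beyond 2 deposited SD. Of all genes 0.226% were 2-fold higher in q1, and 1.55% were 1.5-fold higher in q2 and 1% in q1. No share of all genes is given for the 2 SD rule at that minimum. Where both columns had to reach 100 fragments (129 genes), 0 were 2-fold and 1 was 1.5-fold higher in q1, against 0.173% and 1.10% of all genes. These minimums change which genes are compared. After adjustment for GC content, length and expression, 1 carrier was 1.5-fold higher in q2, 3 lay beyond 2 deposited SD, and the metal carrier median was -0.094. These adjusted counts have no share of all genes beside them. Without genes that share at least 10% of their 50-base stretches with another gene, an alternative chosen after seeing the data like the 2 SD rule, the amino acid carrier median was -0.12. The cause of these shifts was not tested. Of the other 140 recomputed values, counts stayed within 1.5 times the reported count and medians within the error that the deposited SDs give them, which is wide for small classes; the anion carrier median, 0.16 as reported, was 0.076 after adjustment. The median over all carriers stayed between -0.068 and -0.044. Of 260 recomputed ratios of the 45 genes of the naming rule, 256 moved by less than their counting error and 5 changed sign, none of them a gene 1.5-fold apart. Some classes kept under 5 genes at the stricter minimums or without shared sequence and have no median there.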

Other observations

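Some carriers below 100 fragments, named after their values were seen, had large ratios with wide SDs. Slc22a15, of the organic ion transporter family, had 52.8 fragments in q2 and 5.20 in q1, at 3.12 ± 0.77. The organic cation transporter Slc22a3 had 34.9 fragments in q2 and 97.3 in q1, at -1.45 ± 0.51. Slc11a1, the metal transporter of macrophage phagosomes, had 10.9 fragments in q2 and 25.1 in q1, at -1.14 ± 0.70, and the riboflavin transporter Slc52a3 21.8 fragments in q2 and 7.64 in q1, at 1.40 ± 0.77.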
